A study of Mus musculus with 5 samples.

Results

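The lysosome digests what a cell takes up, and 36 mouse genes for its parts were examined here for open chromatin during the formation of macrophages. They encode 9 cathepsins, 10 other hydrolases, 4 lipid transfer or secreted proteins, 5 membrane proteins, 7 parts of the proton pump and the transcription factor TFEB. They were taken by symbol, and all 36 were found among 21000 protein-coding genes with a curated mRNA in RefSeq (GRCm38.p6, the build of mm10). A DNaseI hypersensitive site (DHS) is a short piece of chromatin loose enough to be cut by DNase I. A DHS was called a promoter site of a gene if it came within 1 kb of any annotated transcription start site (TSS) of that gene. A DHS was called another site of a gene if that gene was the nearest protein-coding gene and the DHS lay inside it or up to 100 kb from its TSS.

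DHSs were listed at 5 stages of the in vitro differentiation of mouse embryonic stem (ES) cells of strain 129, in which GFP reports the expression of Brachyury (Bry), a gene of early mesoderm. The stages were mesoderm (MES, Bry:GFP+ Flk1-), hemangioblasts (HB, Bry:GFP+ Flk1+), hemogenic endothelium (HE, Bry:GFP+ Tie2+ cKit+ CD41-), hematopoietic progenitors (HP), sorted as CD41+, and the macrophages (MAC) grown from them, sorted as CD11b+. Each stage gave 1 list. The label of the MAC list names 2 replicates together, so no spread between replicates could be given and no difference between stages was tested. The ES cells had been kept on feeder fibroblasts before differentiation.

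The lysosome is kept acid by the vacuolar ATPase, a rotary proton pump, and its cathepsins and other hydrolases work best at that pH. Most animal cells have lysosomes, and macrophages use theirs to break down engulfed cells, microbes and proteins. TFEB and its relatives TFE3, TFEC and MITF bind an E-box sequence known as the CLEAR element near many lysosomal genes.

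The lists held 17734 sites (HP) to 37456 sites (MAC), and their median site width lay between 600 bp (MAC) and 1200 bp (HE). They gave no height or read count, so depth is unknown and an unlisted site was not shown to be closed. Promoter sites were listed for 2 of 6 macrophage marker genes in each of MES and HB, for 3 in each of HE and HP, and for all 6 in MAC. Of 4 fibroblast marker genes, 3 had one in each of the first 3 stages, 1 in HP and 0 in MAC, and the part of feeder or other cells in the results was not tested. Itgam, which encodes CD11b, had a promoter site in MAC alone. Tek, which encodes Tie2, had one in HE alone, and Itga2b, which encodes CD41, had one in HE and HP. Kdr, which encodes Flk1, had one in every stage, and so did Cd68 and Mertk of the macrophage markers.

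To ask when the lysosomal promoters are open, each gene was given a pattern of stages. The promoters of 31 of the 36 genes were open in all 5 stages, which was 86.1% of them against 43.4% of all genes. By stage, MES, HB and HE each had a promoter site at 32 of the genes, HP at 31 and MAC at 35. The corresponding shares of all genes were 57.2% (MES), 58.9% (HB), 61.7% (HE), 50.1% (HP) and 50.2% (MAC). No lysosomal gene lacked a promoter site in every stage, whereas 32.4% of all genes did. The promoters open throughout included all 10 hydrolases outside the cathepsins, all 4 lipid transfer and secreted proteins, and Tfeb. Lysosomal promoter sites were about as wide as other promoter sites, with medians of 900, 1200, 1700, 1000 and 800 bp from MES to MAC against 1000, 1200, 1600, 1100 and 800 bp over all genes.

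**Figure D1:**
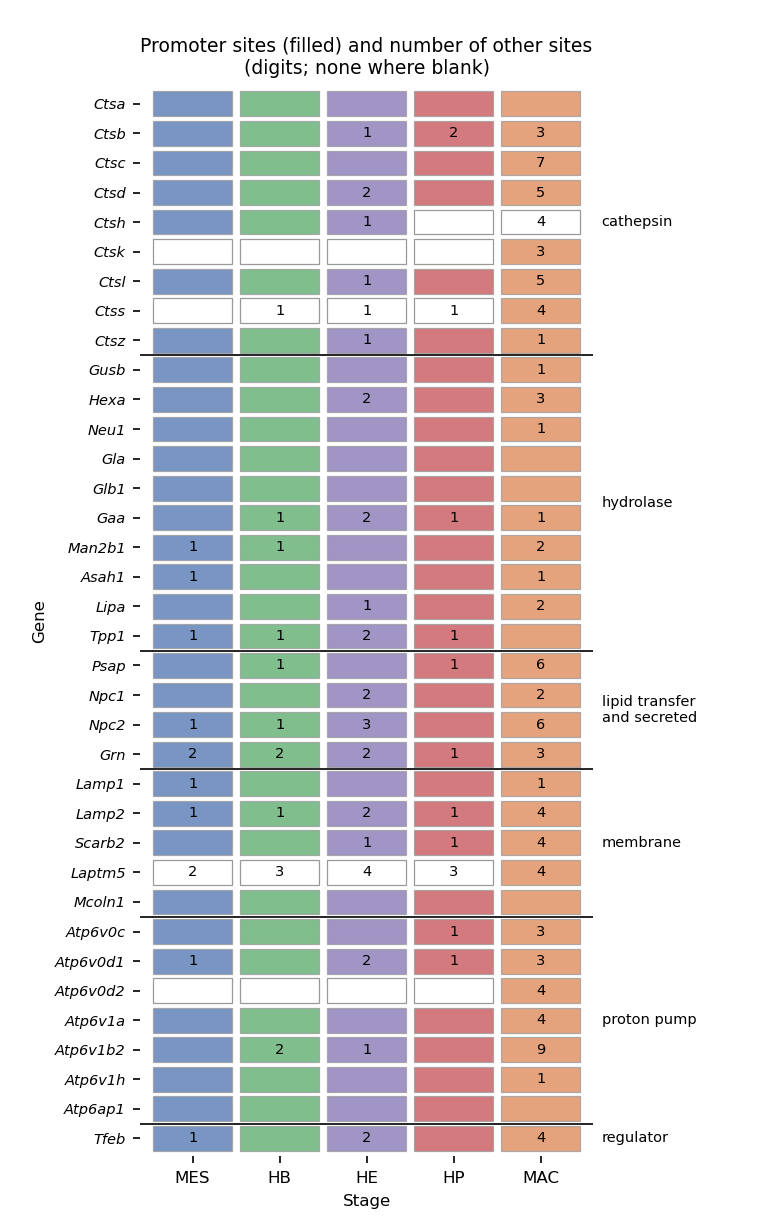
Each row is a gene and each column a stage. A filled cell marks a promoter site, a white cell none, and the digit counts the other sites of the gene in that stage. Ctsk, Ctss, Laptm5 and Atp6v0d2 are filled in MAC alone, and Ctsh is filled in MES, HB and HE alone.

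The promoters of 4 genes were open in MAC alone, which was 11.1% of the 36 against 1.77% of all genes. The 36 genes were chosen with earlier results of these data known, and the share in 66 other lysosomal genes was 1.52%. The 4 genes were Ctsk, Ctss, Laptm5 and Atp6v0d2. Cathepsin K is the collagen-degrading protease of osteoclasts, cathepsin S trims the invariant chain of MHC class II in antigen-presenting cells, LAPTM5 is a lysosomal membrane protein of blood cells, and ATP6V0D2 is a form of the d subunit of the pump found in osteoclasts and macrophages. When each list was limited to its widest sites up to the length of the shortest list, only Laptm5 and Atp6v0d2 stayed in this group. The MAC promoter sites of Ctsk and Ctss were 500 bp wide, below the median of the MAC list, and both were lost in that setting.

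Ctsk (chr3:95499210-95509387, plus strand) had 0 sites in every stage before MAC and 4 in MAC. Its promoter site was centred 0.456 kb inside the gene, in an intron. The other 3 lay 20 and 4.69 kb upstream, both inside the neighbouring gene Arnt, and 12.8 kb downstream of the TSS. Ctss lies next to Ctsk (chr3:95526786-95556405, plus strand) and had 0, 1, 1, 1 and 5 sites from MES to MAC. Its single sites before MAC were at different places upstream, and only that of HE, 2.86 kb from the TSS, was open again in MAC. Thus Ctsk was bare of sites until MAC while Ctss was not.

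Laptm5 (chr4:130912890-130936148, plus strand) had 2, 3, 4, 3 and 5 sites from MES to MAC. None of its sites before MAC overlapped a MAC site. The HE site 6.84 kb inside the gene, however, began just past the end of the MAC site at 6.24 kb. A region 34.5 kb upstream was open in all 4 stages before MAC, and another 22.8 kb upstream was open in HB, HE and HP, and neither was listed in MAC. A region 2.56 kb upstream was open in HE and HP. With a promoter reach of 2 kb this last region turned the Laptm5 pattern into HE, HP and MAC. The MAC promoter site was 1400 bp wide, and the 4 other MAC sites lay 13.7 and 10.8 kb upstream and 6.24 and 8.89 kb inside the gene. The 11 regions of Laptm5 therefore split into 6 seen only before MAC and 5 seen only in MAC.

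Atp6v0d2 (chr4:19876838-19922566, minus strand) had 0 sites in every stage before MAC and 6 in MAC. A site of 700 bp covered the TSS and one of 300 bp was centred 0.991 kb upstream. The other 4 lay 19.8 and 28.1 kb upstream and 3.56 and 27.4 kb inside the gene. Its ubiquitous counterpart Atp6v0d1 had a promoter site in all 5 stages and 2, 1, 3, 2 and 4 sites from MES to MAC.

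Ctsh, a cathepsin with aminopeptidase activity (chr9:90054267-90076095, plus strand), went the other way at its promoter. It had a promoter site of 700 bp in MES, 1100 bp in HB and 1500 bp in HE, and none in HP or MAC. It had no site at all in HP. In MAC it had 4 sites, 20.1 and 11.2 kb upstream and 6.03 and 13.3 kb inside the gene, and none of them was listed in an earlier stage. It was the only 1 of the 36 genes without a promoter site in MAC.

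These promoters differed in base composition. A window of 500 bp at the TSS was called CpG-rich if its GC share was at least 50% and its ratio of observed to expected CpG at least 0.6. By this rule 23 of the 36 lysosomal promoters were CpG-rich (63.9%), against 54.6% of all genes. The 23 were all among the 31 open throughout, where they made up 74.2%, against 89.1% of all genes open in the 5 stages. None of the 4 promoters open in MAC alone was CpG-rich, and of all 372 such genes 27 (7.26%) were. The observed to expected ratio was 0.35 at Ctsk, 0.274 at Ctss, 0.308 at Laptm5, 0.122 at Atp6v0d2 and 0.189 at Ctsh. Among the promoters open throughout, Tpp1 (0.264), Lipa (0.342), Grn (0.352) and Gusb (0.359) also had low ratios, so CpG-poor promoters were found in both groups.

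The CLEAR element was searched in RefSeq promoter windows of GRCm38.p6, which run from 250 bases before the TSS to 50 bases from it and were at hand for 29 of the 36 genes. Ctsb, Ctsh, Asah1, Npc1, Atp6v0d2, Atp6v1b2 and Atp6v1h were not searched in this way. The forms searched on both strands were TCACGTGA, which is its own reverse complement, and GTCACGTG, and they overlap each other and contain the E-box core CACGTG. One or both forms stood in 8 of the 29 windows (27.6%, 95% Wilson interval 14.7 to 45.7%), against 3.54% of 16853 genes and 5.85% of genes whose promoters were open in all 5 stages. The core CACGTG stood in 10 windows, those 8 included (34.5%), against 9.16% of genes. All 8 genes with a CLEAR form had promoters open in all 5 stages, but so had every searched gene except Ctsk, Ctss and Laptm5. Over all genes, 439 of the 597 with a CLEAR form had such promoters. The stretches below show the matches in capitals, 5′ to 3′ on the strand of the gene, and CACGTGAC is GTCACGTG read on the opposite strand.
Ctsa, chr2:164833739-164833772, plus strand: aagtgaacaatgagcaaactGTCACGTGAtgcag
Ctsd, chr7:142387898-142388077, minus strand: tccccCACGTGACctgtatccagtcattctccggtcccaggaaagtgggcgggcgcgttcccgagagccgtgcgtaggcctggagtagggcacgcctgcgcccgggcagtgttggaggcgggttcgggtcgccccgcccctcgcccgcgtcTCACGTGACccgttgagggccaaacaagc
Gla, chrX:134601173-134601253, minus strand: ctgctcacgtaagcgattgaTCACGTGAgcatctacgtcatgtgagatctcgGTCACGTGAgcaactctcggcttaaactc
Glb1, chr9:114401008-114401055, plus strand: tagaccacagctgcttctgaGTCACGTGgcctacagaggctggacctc
Lamp1, chr8:13159113-13159160, plus strand: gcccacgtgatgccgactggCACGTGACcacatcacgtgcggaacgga
Mcoln1, chr8:3500426-3500501, plus strand: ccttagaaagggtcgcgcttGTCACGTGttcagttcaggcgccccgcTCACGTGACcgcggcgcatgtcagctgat
Atp6v0d1, chr8:105566061-105566089, minus strand: aagagccaggccctactgcgGTCACGTGA
Atp6v1a, chr16:44139364-44139411, minus strand: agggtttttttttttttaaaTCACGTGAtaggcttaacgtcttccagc

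In 5 of these genes a match began within 50 bases upstream of the TSS, at 14 bases in Ctsa, 50 in Glb1, 28 in Lamp1, 46 in Mcoln1 and 5 in Atp6v0d1, counted to the first base of the match. Gla, Mcoln1, Ctsd and Ctsa held copies at 2 places each, of which the second in Ctsa starts just past the TSS and is not shown. Gla encodes alpha-galactosidase A, Glb1 beta-galactosidase and Mcoln1 the calcium channel of the lysosomal membrane, and these 3 genes had 1 site in each stage and no site beyond the promoter in any. The sequence for which each was the nearest gene was short, 7.76 kb at Gla, 5.19 kb at Glb1 and 11.1 kb at Mcoln1. The median of the 36 genes was 39.5 kb, so little sequence could hold other sites of these 3. A window of 500 bp centred on every curated TSS, read from the genome for all 36 genes, held a CLEAR form in 12 genes (33.3%) against 4.01% of all genes. A match is a string of letters and no binding of TFEB was measured here.

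The promoters of the genes open in MAC alone were searched for GAGGAA, a core of the sequence bound by the myeloid factor PU.1, on both strands. The windows of Ctsk, Ctss and Laptm5 all held it. None of the 3 held CACGTG, which stood in only 5.59% of the windows of all genes with a promoter open in MAC alone. The GAGGAA matches of Ctss and Laptm5 lay inside the MAC promoter sites of these genes. Those of Ctsk did not, as its MAC promoter site began 206 bp past the TSS. The central 200 bp of the MAC-only promoter region held GAGGAA in Ctss and Laptm5, but not in Ctsk or in either promoter region of Atp6v0d2. Over all genes GAGGAA stood in 30.2% of windows, and it stood in 51% of the 286 windows of genes with a promoter open in MAC alone. Of the 29 lysosomal windows 12 held it (41.4%, 95% Wilson interval 25.5 to 59.3%). The 250 bases upstream of the TSS are shown for these 3 genes because their promoters were listed only in MAC, with GAGGAA or its reverse complement TTCCTC in capitals.
Ctsk, chr3:95498960-95499209, plus strand: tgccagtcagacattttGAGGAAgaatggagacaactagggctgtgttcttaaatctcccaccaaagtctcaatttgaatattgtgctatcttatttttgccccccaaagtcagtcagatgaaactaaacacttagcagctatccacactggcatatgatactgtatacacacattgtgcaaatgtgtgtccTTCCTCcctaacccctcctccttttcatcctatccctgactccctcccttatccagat
Ctss, chr3:95526536-95526785, plus strand: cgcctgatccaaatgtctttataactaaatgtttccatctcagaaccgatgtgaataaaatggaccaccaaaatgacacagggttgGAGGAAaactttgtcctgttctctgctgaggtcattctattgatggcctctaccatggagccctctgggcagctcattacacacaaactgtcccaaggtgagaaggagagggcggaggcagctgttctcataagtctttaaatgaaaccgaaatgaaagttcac
Laptm5, chr4:130913066-130913315, plus strand: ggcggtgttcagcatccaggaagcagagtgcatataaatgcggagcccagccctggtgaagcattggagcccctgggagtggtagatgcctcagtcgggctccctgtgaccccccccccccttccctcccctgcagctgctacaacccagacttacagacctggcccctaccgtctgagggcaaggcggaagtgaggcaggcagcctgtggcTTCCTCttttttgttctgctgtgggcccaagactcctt

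Beyond the promoters the picture changed with the stage. From MES to MAC the 36 genes had 45, 47, 65, 46 and 144 sites. Promoter sites among these were 33, 33, 32, 32 and 43, so most of the difference lay in the other sites, of which there were 12, 14, 33, 14 and 101. The sites of these genes made up 0.205%, 0.19%, 0.195%, 0.259% and 0.384% of the 5 lists (95% Wilson interval 0.327 to 0.452% in MAC). When every list was cut to its 17734 widest sites, the genes had 40, 39, 47, 46 and 72 sites, and the MAC share was 0.406%. In 25 of the 36 genes (69.4%) MAC had more sites than any other stage, against 22.9% of all genes. With the widest sites these were 15 genes (41.7%), against 10.7% of all genes.

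**Figure D2:**
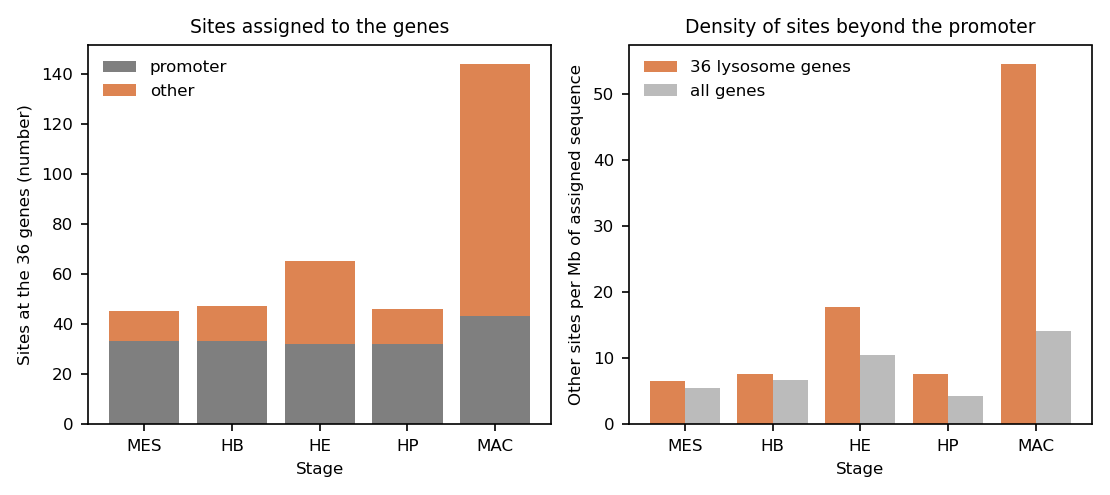
The left panel shows the number of promoter and other sites at the 36 genes in each stage, 1 list per stage and no error bars. The right panel shows other sites per Mb of sequence assigned to the 36 genes and to all genes, where MAC reaches 54.6 against 14.1.

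The genes differ in how much sequence they can draw sites from, so the other sites were set against the sequence for which each gene was the nearest. This sequence came to 1.85 Mb for the lysosomal genes, from 5.19 kb at Glb1 to 176 kb at Ctsc, with a median of 39.5 kb against 49 kb over all genes. The lysosomal genes had 6.49, 7.57, 17.8, 7.57 and 54.6 other sites per Mb from MES to MAC. All genes had 5.47, 6.63, 10.5, 4.23 and 14.1. The lysosomal genes thus stood near the level of all genes in MES and HB and furthest above it in MAC. With the widest sites of each list the MAC values were 21.6 and 5.29 per Mb. The median lysosomal gene had 0, 0, 1, 0 and 3 other sites from MES to MAC, and the median over all genes was 0 in each stage.

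To see whether MAC opened new places, sites of all stages were set to 500 bp around their middles, merged across stages where they overlapped by the amount the study used, and given a pattern of open stages. The 36 genes had 184 merged regions, 52 at promoters and 132 beyond them. The reach of 1 kb was counted here from the edge of the region, so sites narrower than 500 bp reached further. In this way 3 MAC-only regions, at Ctsz, Grn and Atp6v0c, counted as promoter regions although their deposited sites had counted as other sites. Of the 132, 83 were open in MAC alone (62.9%, 95% Wilson interval 54.4 to 70.6%), against 38.5% of all 45165 regions beyond promoters. Of the 52 promoter regions, 28 were open in all 5 stages (53.8%), against 45.1% of 16775 promoter regions of all genes, and 15 were open in MAC alone (28.8%), against 8.03%. Tfeb and Atp6v0d2 each held more than 1 of these 15. With the widest sites the share beyond the promoter that was open in MAC alone was 54.7% against 29.5%. Hexa, Atp6v1b2 and Tfeb had promoter sites in every stage but no promoter region open in all 5, as the middles of their HE sites lay apart from those of the other stages. At Ctsa, Lipa, Hexa and Npc2 a MAC-only region came from a MAC site that overlapped a deposited site of an earlier stage. With deposited intervals merged instead of windows, MAC-only regions, promoters included, came to 94 in place of 98.

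Of the 98 regions beyond promoters that were open in MAC, 15 were also open in an earlier stage (15.3%, 95% Wilson interval 9.5 to 23.7%), against 26.7% of 23724 such regions of all genes. HE shared 14 of the 15 (93.3%) and HP shared 3 (20%), against 82.3% and 49.4% of the 6334 regions of all genes that were open in MAC and earlier. A pattern of HE and MAC alone was seen in 10 of the 132 regions beyond promoters (7.58%, 95% Wilson interval 4.17 to 13.4%), against 4.18% of all such regions. They were at Ctsd (5.49 and 10.5 kb upstream), Ctss, Hexa, Npc1, Npc2, Lamp2, Scarb2, Atp6v0d1 and Atp6v1b2. The HE sites were the widest and the HP list was the shortest, and the part of these differences in the pattern was not tested. Regions open in HE alone were 14 of the 184 (7.61%), against 17.1% of all merged regions. A further 34 of the 132 regions beyond promoters (25.8%, 95% Wilson interval 19.1 to 33.8%) were open before MAC and not in MAC, against 47.5% of all such regions. Among them were regions of Tpp1 (9.89 kb upstream, in an intron of Dchs1), Grn (7.46 kb downstream of the TSS, in an exon of Fam171a2) and Laptm5 (34.5 kb upstream) that were open in each of the 4 earlier stages.

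The 83 regions open in MAC alone were spread around the genes. By their centre 43 were intergenic, 39 intronic and 1 in a coding exon, with 33 in the lysosomal gene itself and 7 in another gene. There were 45 upstream and 38 downstream of the nearest TSS, at a median distance of 13 kb. Of them 32 lay within 10 kb, 43 between 10 and 50 kb and 8 beyond 50 kb. At least 1 such region was found at 28 of the 36 genes (77.8%), against 36.9% of all genes. Among the 31 genes with a promoter open throughout it was 23 (74.2%), against 45.9% of the 9106 genes with such a promoter. With promoter regions counted too, 8 of the 36 genes had at least 5 regions open in MAC alone (22.2%), against 4.46% of all genes.

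**Figure D3:**
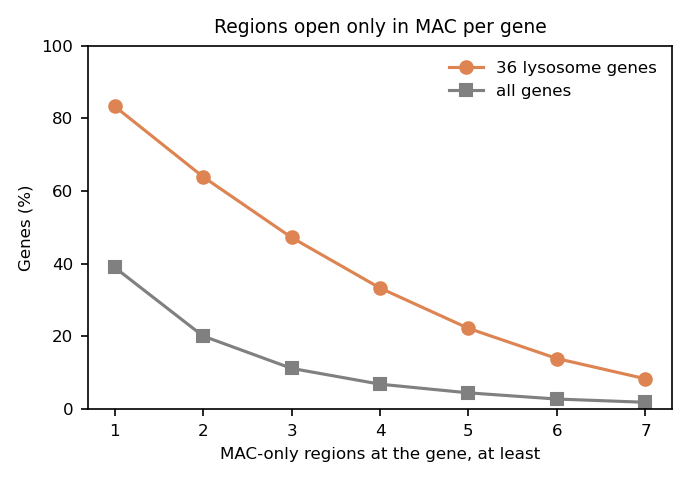
The share of genes (%) with at least the number of MAC-only regions on the x axis, promoter regions included, for the 36 lysosomal genes and for all genes. The lysosomal genes are above all genes at each number, with 83.3% against 39% at 1 region and 22.2% against 4.46% at 5.

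The cathepsins, the proteases of the lysosome, had 7, 8, 14, 10 and 41 sites from MES to MAC. By the merged windows all 9 had a MAC-only region, 31 in total. The MAC site behind that of Ctsa lay inside wider deposited sites of MES, HB and HE. Cathepsin C, a dipeptidyl peptidase that activates granule proteases (chr7:88278024-88315861, plus strand), had 1 site in each stage before MAC and 8 in MAC. Its 7 MAC-only regions were all intergenic and upstream, from 6.47 to 77.7 kb from the TSS. It also had the most assigned sequence of the 36 genes. Cathepsin L (chr13:64361890-64370772, minus strand) had 1, 1, 2, 1 and 6 sites, and 5 MAC-only regions, of which 4 lay 3.34 to 27.7 kb upstream and 1 lay 12.9 kb downstream of the TSS.

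Cathepsin D, the main aspartic protease (chr7:142375910-142387827, minus strand), had 1, 1, 3, 1 and 6 sites from MES to MAC. All of its MAC sites beyond the promoter were upstream, 3.53 to 16 kb from the TSS, and 2 of these 5 had been listed in HE. Ctsb, a cysteine protease (chr14:63122462-63145923, plus strand), had 1, 1, 2, 4 and 4 sites, so HP and MAC had the same number. Only 1 of its regions beyond the promoter, 9.94 kb inside the gene, was open in both HP and MAC, and it was open in HE as well. Ctsz, a carboxypeptidase (chr2:174427494-174439039, minus strand), had 1, 1, 2, 1 and 2 sites with 1 MAC-only region, 1.16 kb inside the gene. Ctsa, the protective protein of beta-galactosidase and neuraminidase (chr2:164832872-164841032, plus strand), had 1 site in each stage before MAC and 2 in MAC, both at its promoters and over exons of the neighbouring gene Neurl2. Its MES, HB and HE sites were wider and each overlapped both MAC sites, so the higher MAC count of Ctsa marks no new place.

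**Figure D4:**
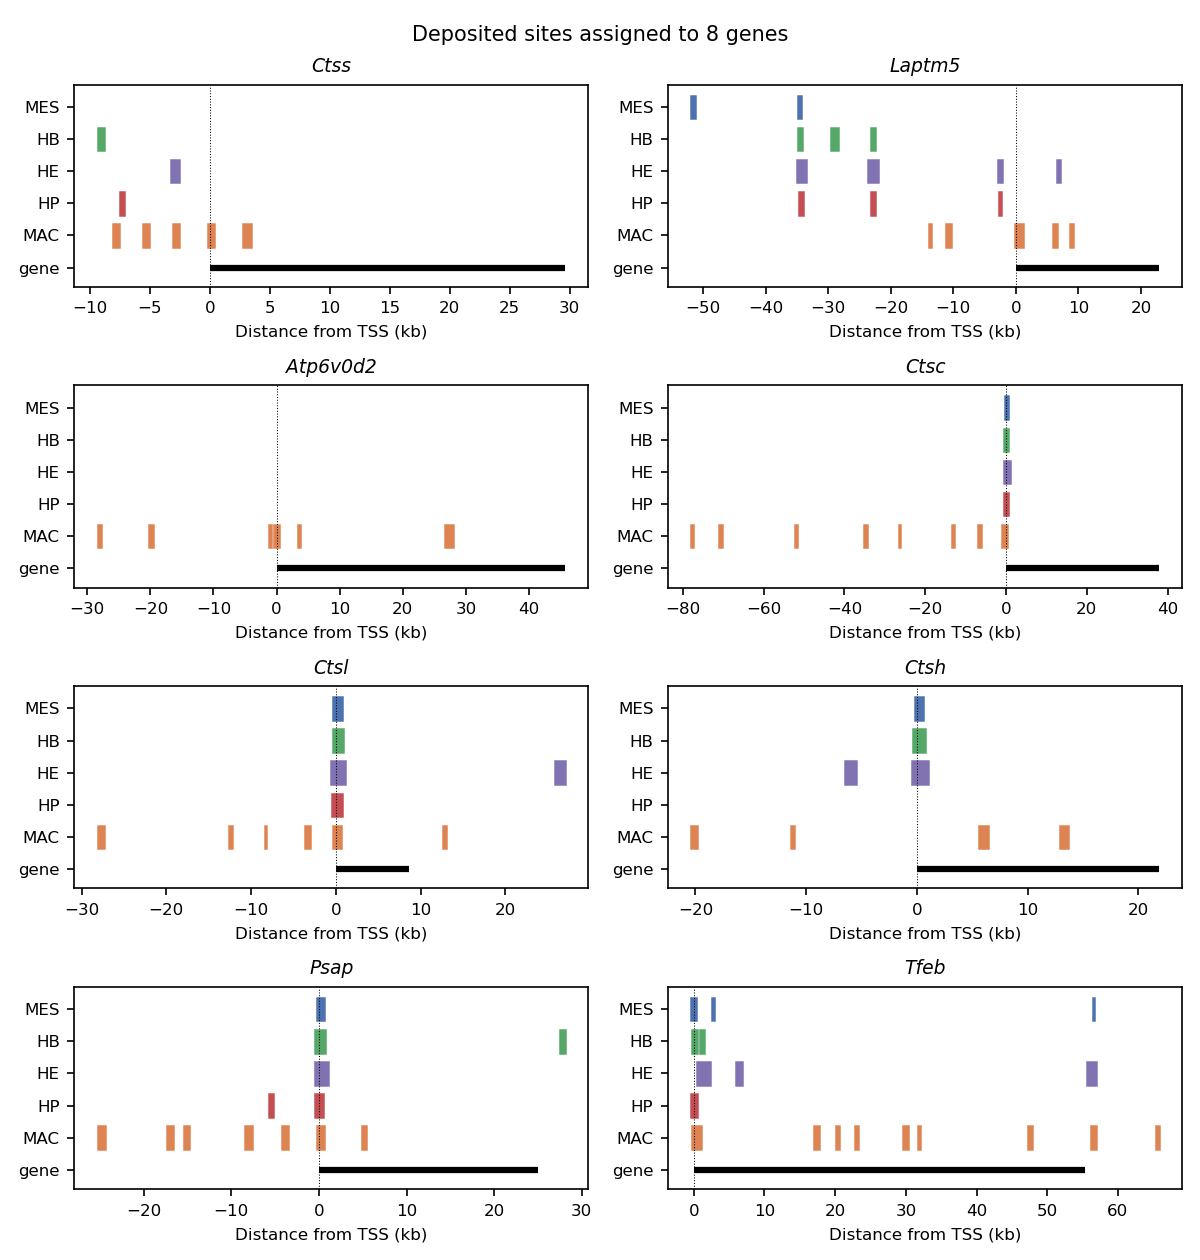
Sites of 8 genes in each stage against distance from the outermost curated TSS in kb, negative upstream, with the gene as a black bar. Ctsc has 1 site per stage before MAC and 7 further sites upstream in MAC, Atp6v0d2 has sites in MAC alone, and no Laptm5 site before MAC has its middle at a MAC site.

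The other hydrolases had 13, 13, 17, 12 and 23 sites from MES to MAC, and 11 MAC-only regions at 6 of the 10 genes. Lipa, the acid lipase that frees cholesterol and fatty acids, had 1, 1, 2, 1 and 4 sites and 3 MAC-only regions. Hexa, the alpha subunit of beta-hexosaminidase, had 1, 1, 3, 1 and 4 sites. Gusb, beta-glucuronidase, had 1 site in each stage before MAC and 3 in MAC. Neu1, a sialidase, had 1 site in each stage before MAC and 2 in MAC. Man2b1, an alpha-mannosidase, had 2, 2, 1, 1 and 3 sites, and Asah1, acid ceramidase, had 2, 1, 1, 1 and 2. Gaa, the glucosidase that degrades glycogen, had 1, 2, 3, 2 and 2 sites and no MAC-only region. Tpp1, a tripeptidyl peptidase, was the only gene of the 36 with fewer sites in MAC than in HP, with 2, 2, 3, 2 and 1. Gla and Glb1 had their promoter site alone.

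The 4 genes of lipid transfer and secreted proteins all had MAC-only regions, 15 in total, and 7, 8, 11, 6 and 21 sites from MES to MAC. Psap encodes the precursor of the saposins, which present lipids to hydrolases (chr10:60277628-60302600, plus strand), and it had 1, 2, 1, 2 and 7 sites. Its 6 MAC-only regions included 5 upstream of the gene, 3.9 to 24.8 kb from the TSS, and 1 in an intron of Psap. Npc2, which binds cholesterol in the lumen (chr12:84754559-84773112, minus strand), had 2, 2, 4, 1 and 7 sites, with 5 MAC-only regions 5.44 to 24.7 kb downstream of the TSS. The deposited MAC site of the one 21 kb downstream overlapped an HE site, but their windows overlapped too little to be merged. Npc1, the membrane partner of NPC2, had 1, 1, 3, 1 and 3 sites, and Grn, progranulin, had 3, 3, 3, 2 and 4.

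The membrane proteins had 8, 8, 11, 9 and 18 sites, with Laptm5 described above. Lamp1 and Lamp2 are the main glycoproteins of the lysosomal membrane. Lamp1 had 2, 1, 1, 1 and 2 sites and Lamp2 had 2, 2, 3, 2 and 5. Lamp2 also had the only region beyond a promoter that was open in all 5 stages. Scarb2, the receptor that carries beta-glucocerebrosidase to lysosomes, had 1, 1, 2, 2 and 5 sites with 3 MAC-only regions.

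The proton pump genes had 7, 8, 9, 8 and 32 sites, and 23 MAC-only regions at 6 of the 7 genes. Atp6v1b2, the B2 subunit of the catalytic head (chr8:69088736-69113718, plus strand), had 1, 3, 2, 1 and 10 sites, the most of any of the 36 genes in MAC. All 7 of its MAC-only regions were upstream, 7.06 to 95.3 kb from the TSS, with the 2 nearest inside the neighbouring gene Slc18a1. Atp6v1a, the A subunit of the head, had 1 site in each earlier stage and 5 in MAC, with 4 MAC-only regions in its introns. Atp6v0c, the proteolipid of the membrane ring, had 1, 1, 1, 2 and 4 sites. Atp6v1h, a regulatory subunit, had 1 site in each earlier stage and 2 in MAC. Atp6ap1, an accessory protein of the pump, had its promoter site alone in all 5 stages.

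Tfeb (chr17:47737037-47792416, plus strand) has 3 curated TSSs and had 3, 2, 3, 1 and 9 sites from MES to MAC. The promoter region at its outermost TSS, 0.153 kb inside the gene, was open in MES, HB, HP and MAC, and the HE site was centred a little further in. Of its 7 MAC-only regions, 4 counted as promoter regions of annotated transcripts and 3 did not. They lay 16.4, 19.4 and 22.1 kb downstream of the nearest curated TSS, 18.7, 16.9 and 1.16 kb upstream of it, and 16.8 kb downstream of it beyond the gene. A region 7.69 kb downstream of the innermost TSS was open in MES, HE and MAC.

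The 83 MAC-only regions were searched in their central 200 bp, on both strands, for short consensus sequences of factors known in macrophages. GAGGAA (PU.1) stood in 28 of them (33.7%, 95% Wilson interval 24.5 to 44.4%), against 37.1% of all 17390 such MAC-only regions and 29.2% of all regions beyond promoters. TTGCNNAA, which C/EBP factors bind, stood in 21.7% against 16.9%. TGANTCA (AP-1) stood in 18.1% against 22%, and TGTGGT (RUNX) in 18.1% against 22.1%. TCANGTGA, the E-box of the MITF and TFE family, stood in 6.02% against 4.74%, and CACGTG in 1.2% against 4.42%. The Wilson intervals of the lysosomal shares held the value of all MAC-only regions for each of these 6 sequences. In the 49 regions of other patterns at the same genes the shares were 20.4% for GAGGAA, 6.12% for TTGCNNAA, 10.2% for TGANTCA, 16.3% for TGTGGT, 2.04% for TCANGTGA and 0% for CACGTG. Over all 27775 regions of other patterns they were 24.3%, 7.32%, 11.5%, 16.5%, 2.44% and 3.49% in the same order. TCACGTGA also fits TCANGTGA and holds CACGTG, so these matches can overlap.

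The central 200 bases of the widest MAC-only region beyond the promoter are shown for Psap and Ctsl, which rank high in MAC-only regions and held matches, on the plus strand of GRCm38.p6. The Psap region, 24.8 kb upstream and intergenic, held a C/EBP match, TTGTGCAA. A second Psap region of the same width, 800 bp, lay 8.05 kb upstream and held GAGGAA and no C/EBP match. The Ctsl region, 27.7 kb upstream and intergenic, held AP-1, RUNX and MITF/TFE matches that run together in 1 stretch. The corresponding regions of Ctsc (6.47 kb upstream) and Tfeb (18.7 kb upstream of the nearest curated TSS, in an intron) held none of the 6 sequences.
Psap, chr10:60252681-60252880: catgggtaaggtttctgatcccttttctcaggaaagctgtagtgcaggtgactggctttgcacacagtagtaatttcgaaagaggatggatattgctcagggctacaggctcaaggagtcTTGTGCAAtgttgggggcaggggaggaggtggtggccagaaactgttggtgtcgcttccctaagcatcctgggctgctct
Ctsl, chr13:64398162-64398361: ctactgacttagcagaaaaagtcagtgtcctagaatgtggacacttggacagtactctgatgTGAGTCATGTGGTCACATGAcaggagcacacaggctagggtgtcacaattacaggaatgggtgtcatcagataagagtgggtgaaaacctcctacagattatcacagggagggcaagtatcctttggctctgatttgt

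A second list of 66 lysosomal genes, taken for their function but also with earlier results of these data known, was read in the same way. From MES to MAC, 58, 58, 61, 54 and 59 of them had a promoter site, and 51 (77.3%) had one in all 5 stages, against 43.4% of all genes. Slc11a1, the metal transporter NRAMP1 of phagosomes, was the 1 gene of the 66 with a promoter open in MAC alone (1.52%), near the 1.77% of all genes. Ctsg, Ctsw, Lamp5 and Atp6v1b1 had no promoter site in any stage. A MAC-only region beyond the promoter was found at 38 of the 66 (57.6%), against 36.9% of all genes. The median gene of the 66 had 1 MAC-only region, against 2 for the 36 genes and 0 over all genes. Lgmn, the protease legumain, had 1, 2, 4, 3 and 12 sites from MES to MAC and 10 MAC-only regions, more than any of the 36. Ppt1, a thioesterase, had 1 site in each stage before MAC and 7 in MAC.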

How the data were processed

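DNaseI-seq was analysed in 5 populations. According to the methods, the authors trimmed reads of 50 bp with CutAdapt, aligned them to mm10 with Bowtie and used DFilter to call sites on uniquely aligned reads after Picard had taken out duplicates (bins of 100 bp, kernel size 50). Versions were not given in the sources used here, and the submitters' processing notes name Bowtie and HOMER. Each deposited line gives where a site starts and ends in bp, and every width was a multiple of 100 bp. The lists hold no count or score, so depth and its precision are unknown and n = 1 per stage.

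The reference was RefSeq GRCm38.p6. Sites were assigned to genes with Python 3.11.15, numpy 2.4.6, pandas 2.3.3 and pysam 0.24.0. Assignment and merging were checked on sites placed at known distances. Wilson intervals cover counting error only. No test between stages was run. The members and lists were chosen with earlier results of these data known. Genes described in full were the cathepsins, Tfeb, genes whose promoter was not open throughout, and the 6 genes with most MAC sites or most MAC-only regions. Others were given mainly by counts, with the positions of a few regions chosen after their values were seen. Alternatives varied promoter reach, TSS set, distance, nearest-gene rule, merging, site width and motif window. The count of genes with most sites in MAC was added after seeing the data. The comparisons with GAGGAA and CACGTG in all promoters open in MAC alone were added then too. So were the shares of MAC-only promoter regions, of HE and MAC regions, of MAC regions open earlier and of regions not open in MAC. The motif shares over regions of other patterns and the settings of all these values were also added after seeing the data.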

Additional observations from a re-analysis of the deposited data

How the results depend on the processing

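Of 83 values recomputed under other settings, 71 kept their size within a factor of 1.5 or, for shares, within the Wilson interval, and 12 did not. Most of the 12 followed the width of the sites. With sites narrower than the median of their list left out, the genes with a promoter open in MAC alone came to 2 in place of 4, and the sites of the 36 genes fell to 27 in MES, 28 in HP and 78 in MAC. With the widest sites up to the length of the shortest list, the promoters open in MAC alone were 2, MAC sites 72, merged regions 105, MAC-only regions 40, and genes with more sites in MAC than in any other stage 15. These settings hold fewer sites by construction. The pattern of 12 promoters changed at the median width and of 6 with the widest sites. A search of 500 bp in place of 200 bp found GAGGAA in 59% of MAC-only regions, TGANTCA in 33.7% and TGTGGT in 42.2%, the longer window giving more room, with 59%, 33.7% and 41.5% over all MAC-only regions. Promoter reach, TSS set, distance, nearest-gene rule and merging moved none of the counts recomputed by over 1.5 times. No paired analysis was possible because each stage has 1 list. Depth is unknown, and the length of the MAC list, its 2 named replicates and the stage cannot be told apart.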

Other observations

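The relatives of Tfeb were read in the same lists. Mitf, the melanocyte and osteoclast member of the family, had 1, 3, 6, 1 and 10 sites from MES to MAC, and 9 of its merged regions were open in MAC alone. Tfec, a member expressed in macrophages, had 0, 0, 3, 1 and 6 sites, a promoter site in HE and MAC alone, and 5 MAC-only regions. Tfe3 had 2 sites in each stage before MAC and 1 in MAC, with a promoter open in all 5 stages and 0 MAC-only regions. Among genes of the pump outside the 36, Tcirg1, the a3 subunit of osteoclasts, had 1, 1, 1, 0 and 4 sites and 4 MAC-only regions, and Atp6v1c1 had 1, 1, 5, 4 and 10 sites and 5 MAC-only regions. Atp6v0b, Atp6v1d, Atp6v1f and Atp6v1g1 had 1 site in each of the 5 stages. No difference between these genes was tested, as each stage is 1 list.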
